A study of Mus musculus with 12 samples.

Results

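The genes described here are 10 calcium-binding proteins of the S100 and annexin families, the S100 proteins S100a4, S100a6, S100a10, S100a11 and S100b and the annexins Anxa1, Anxa2, Anxa3, Anxa4 and Anxa5. They were chosen by name from the 37991 genes of the deposited count table. Total RNA had been sequenced in bulk from cord tissue of adult C57bl/6J mice more than 8 weeks of age, 12 in all, in 3 groups of 4. Every mouse, controls included, carried Rasless, R26R-YFP and Glast-CreERT2, in which tamoxifen activates a Cre recombinase driven by the Glast promoter in type A pericytes and in other cells that use this promoter. Mice labelled SCI Veh received the ethanol and corn oil solvent, and mice labelled SCI Tam received 2 mg of tamoxifen in that solvent on each of 5 days. After 7 clearing days both had a dorsal hemisection of the high thoracic cord, and the lesion was dissected after 14 days. The Uninjured group gave cord segments from mice labelled with vehicle injection. By the series' own description, scarring by pericyte-derived cells was full in vehicle lesions and reduced after tamoxifen. No group had tamoxifen without injury or tamoxifen without the alleles, so tamoxifen and recombination cannot be told apart.

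S100 proteins are small EF-hand proteins that change shape when they bind calcium, and most work as dimers that grip other proteins. Annexins bind acidic phospholipids of membranes in the presence of calcium and take part in membrane repair, vesicle traffic and the control of inflammation. Members of the families bind each other: annexin A2 forms a tetramer with S100A10, and annexin A1 pairs with S100A11. In the nervous system S100B is best known as a protein of astrocytes and some oligodendrocyte-lineage cells, while S100A4, S100A6 and annexins A1, A2 and A3 are associated with reactive glia, fibroblasts, and infiltrating or resident immune cells.

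The promoters of S100a4, S100a6, S100a11 and Anxa1 are shown because these genes had the largest or the most divided responses described below. Of the 10 members, 8 had an entry in the RefSeq promoter table (build GRCm38.p6), and S100a10 and Anxa3 are named only. Each sequence below is the 250 bases before the annotated start, 5′ to 3′ on the gene's strand, in lower case. Capitals mark matches on either strand to 4 motifs: the AP-1 site TGANTCA, the TATA box TATAAA, the GC box GGGCGG and the CCAAT box CCAAT.
S100a4 (chr3:90603520-90603769, + strand): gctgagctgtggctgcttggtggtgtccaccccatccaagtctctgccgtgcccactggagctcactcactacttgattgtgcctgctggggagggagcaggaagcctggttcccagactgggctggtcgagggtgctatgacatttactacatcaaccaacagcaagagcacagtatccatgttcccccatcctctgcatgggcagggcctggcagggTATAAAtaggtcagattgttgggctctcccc
S100a6 (chr3:90612644-90612893, + strand): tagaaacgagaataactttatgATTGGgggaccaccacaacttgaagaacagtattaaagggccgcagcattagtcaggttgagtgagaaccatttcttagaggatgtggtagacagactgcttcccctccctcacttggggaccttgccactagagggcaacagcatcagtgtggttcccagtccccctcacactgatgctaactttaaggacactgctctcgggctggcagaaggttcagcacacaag
S100a11 (chr3:93520246-93520495, + strand): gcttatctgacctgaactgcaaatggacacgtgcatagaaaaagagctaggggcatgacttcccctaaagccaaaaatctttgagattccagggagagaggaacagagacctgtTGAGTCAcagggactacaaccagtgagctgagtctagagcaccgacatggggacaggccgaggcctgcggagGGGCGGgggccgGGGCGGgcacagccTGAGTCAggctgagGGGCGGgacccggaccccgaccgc
Anxa1 (chr19:20390672-20390921, - strand): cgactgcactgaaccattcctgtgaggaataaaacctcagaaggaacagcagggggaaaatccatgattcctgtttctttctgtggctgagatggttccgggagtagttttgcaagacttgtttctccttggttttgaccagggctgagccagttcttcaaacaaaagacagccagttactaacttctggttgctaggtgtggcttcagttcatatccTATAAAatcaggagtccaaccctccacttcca

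S100a4 and Anxa1 both carried a TATA box close to the start, its first base at -31 in S100a4 and at -32 in Anxa1. The third member with this motif was Anxa2 (first base at -17), which made 3 of 8 members, against 12.4% of the 32851 promoters in the table cut to the same length. S100a11 held AP-1 letters at 2 places, beginning at -136 and at -38, and 3 GC boxes between -64 and -19. Anxa2 was the only other member of the 8 with an AP-1 match (6.7% of all promoters had one) or a GC box (32.7%). S100a6 and S100b were the 2 members with a CCAAT match (33.8% of all promoters). The starts of S100a4 and S100a6 lay 9124 bases apart on chromosome 3, in the same direction, and S100a11 started a further 2907602 bases along. These matches are a description of letters and say nothing of whether a factor was bound.

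The libraries held 7967970 to 12581324 counts each, and all 10 members passed the filter on low counts. In every group no neuron, astrocyte or oligodendrocyte marker listed was at 0. The libraries differed in other ways that moved with the groups. The 3 tamoxifen libraries 513, 549 and 564 (named by mouse number) carry sample names 106 to 108, called the high series here, and the other 9 libraries carry names up to 20. For 497 of 15259 genes the counts stepped against the same libraries' FPKM between these sets, but for none of the 10 members, so counts were used for all of them. By sex-linked transcripts all 4 tamoxifen mice were female, against 1 of 4 vehicle mice and 3 of 4 uninjured mice. Skeletal muscle transcripts were high in uninjured libraries 377 and 385 and in vehicle libraries 402, 429 and 457.

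Levels are given as CPM, the counts scaled to library size with TMM factors. A member is called where the two-sided edgeR quasi-likelihood test gave a Benjamini-Hochberg adjusted p under 0.05 over all 16473 genes tested. In vehicle lesions 9 of 10 members were higher than in uninjured cord, all but S100b. Among all genes tested, 26.7% were called higher in this comparison. The median log2 change of the 10 members was 2.37, beside 0.02 for all genes. In tamoxifen lesions 5 of 10 members were lower than in vehicle lesions, S100a4, Anxa1, Anxa2, Anxa3 and Anxa5, and none was higher. Among all genes 8.33% were called lower, and the members' median was -0.46 beside 0.00 for all genes. All 10 members were higher in tamoxifen lesions than in uninjured cord, where 26.3% of genes were called higher, with a median of 1.59 beside 0.01. Each pair of these comparisons shares the 4 libraries of a group. In a bulk sample, fewer cells of a type and less RNA per cell cannot be told apart.

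**Figure D1:**
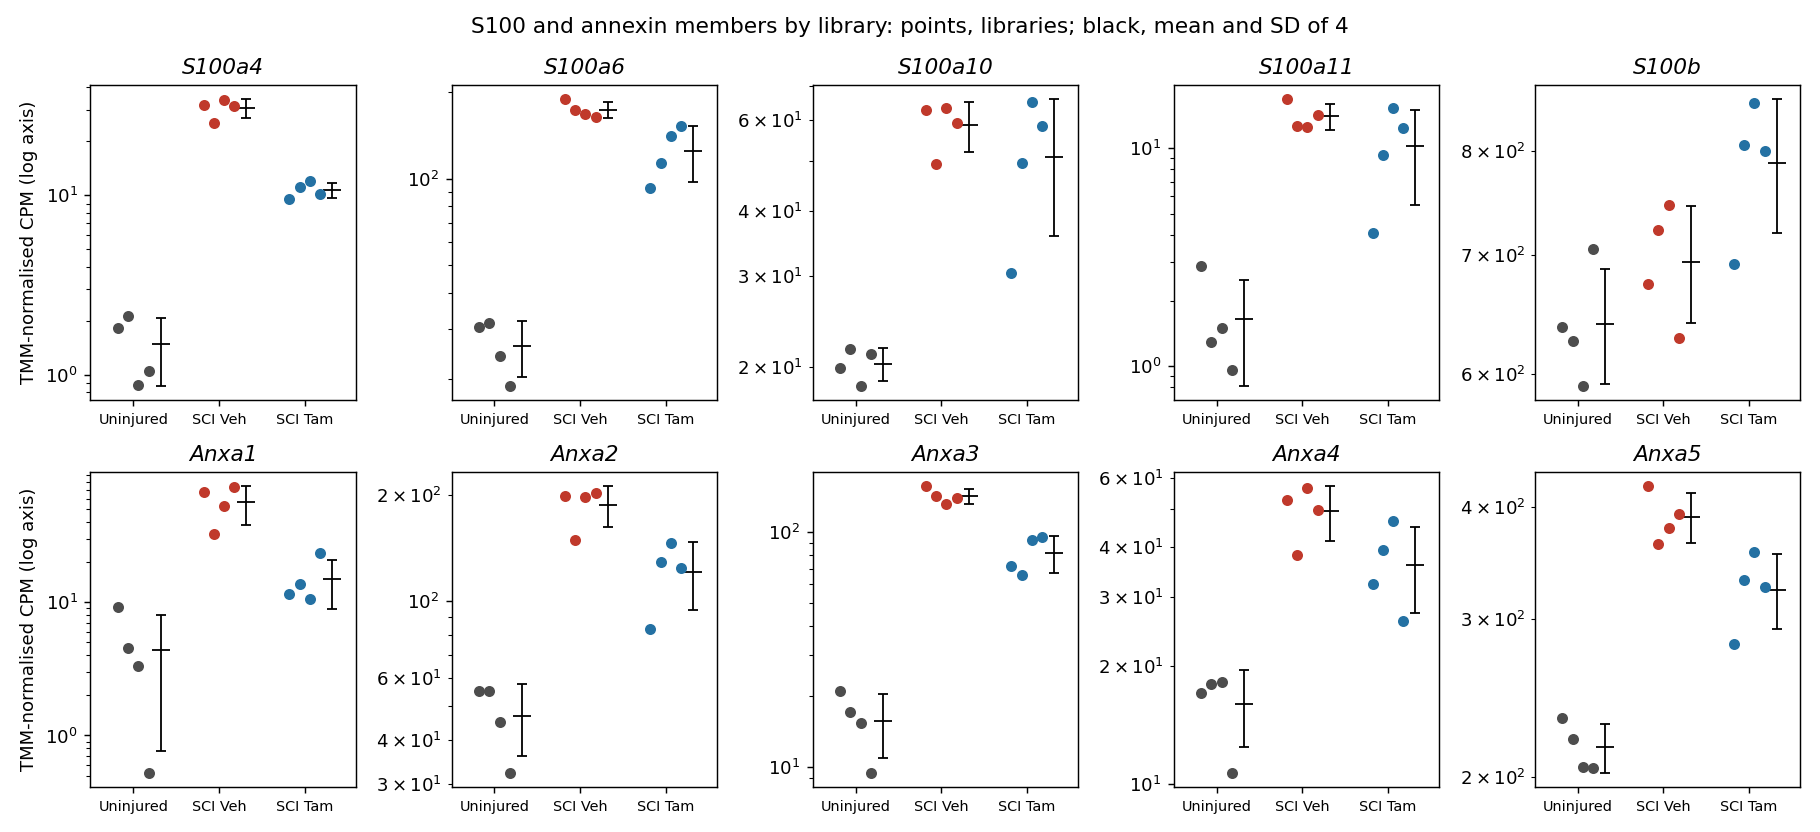
Level of each of the 10 members in each library, as TMM-normalised CPM on a log axis, with points for the 4 libraries of a group and a black mean with SD. The 4 tamoxifen libraries of S100a4, at 9.59 to 11.97 CPM, lie between the uninjured and the vehicle libraries, whereas the ranges of S100b overlap between groups.

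S100a4, also called fibroblast-specific protein 1 although macrophages and other cells make it too, had the largest rise after injury of the 10 members. Its level was 1.84, 2.14, 0.879 and 1.05 CPM in the uninjured libraries 376, 377, 385 and 467, from 10 to 25 counts each. In the vehicle libraries 402, 428, 429 and 457 it was 31.95, 25.4, 33.9 and 31.5 CPM. In the tamoxifen libraries 452, 513, 549 and 564 it was 9.59, 11.1, 11.97 and 10.2 CPM. No group overlapped another, and the tamoxifen libraries were close to each other although they came from both sample name series. S100a4 rose by 4.38 on the log2 scale after injury (SE 0.21, adjusted p = 2.69e-07, edgeR quasi-likelihood), a 20.8-fold difference. It fell by 1.52 on the log2 scale after tamoxifen against vehicle (SE 0.17, edgeR adjusted p = 0.000516). It was 7.28-fold above uninjured cord (log2 change 2.86, SE 0.21, edgeR adjusted p = 1.43e-05). Of the 31-base words in its reference transcripts, 49.2% also stand in the predicted gene Gm42674, so reads that match both could be split between them and its counts are uncertain. No value of Gm42674 is used here.

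S100a6, or calcyclin, binds annexins and the adaptor protein CacyBP and is a known product of reactive astrocytes and fibroblasts. Its levels were 30.4, 31.4, 24.0 and 19.0 CPM in the uninjured libraries and 189, 174, 167 and 164 CPM in the vehicle libraries. The tamoxifen libraries stood at 92.5 (452), 113 (513), 141 (549) and 153 CPM (564), so library 452 was lowest and 564 reached nearest to the vehicle range. S100a6 rose by 2.73 on the log2 scale after injury (SE 0.17, edgeR adjusted p = 1.17e-06). Every tamoxifen library lay below every vehicle library, yet the difference of -0.47 (SE 0.16) did not pass (edgeR adjusted p = 0.0587). S100a6 passed in 5 of 28 alternative fits of this comparison. The 2 neighbouring genes therefore had unlike values: the log2 FPKM ratio of S100a4 to S100a6 was -2.96 in uninjured cord (-3.39 to -2.46), -1.63 in vehicle lesions (-1.98 to -1.44) and -2.74 in tamoxifen lesions (-3.15 to -2.44). That ratio was chosen after its values were seen and has no test.

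S100a10, the light chain of the annexin A2 tetramer and a binder of plasminogen at the cell surface, rose less. It was at 19.9, 21.6, 18.4 and 21.2 CPM in uninjured cord and at 62.7, 49.4, 63.4 and 59.2 CPM in vehicle lesions, a log2 change of 1.54 (SE 0.19, edgeR adjusted p = 3.32e-05). The tamoxifen libraries held 30.3 (452), 49.6 (513), 65.0 (549) and 58.5 CPM (564). Library 452 alone lay far below the vehicle libraries, while 549 exceeded all of them. The difference from vehicle was -0.20 (SE 0.18) and did not pass (edgeR adjusted p = 0.444).

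S100a11, or calgizzarin, which binds annexin A1 and takes part in membrane repair, had low counts in uninjured cord, from 11 to 25 a library. Its levels there were 2.87, 1.29, 1.49 and 0.966 CPM, against 16.7, 12.6, 12.5 and 14.1 CPM in vehicle lesions. This is a log2 rise of 3.11 (SE 0.38, edgeR adjusted p = 3.75e-05). The tamoxifen libraries spread from 4.07 CPM in 452 through 9.23 in 513 and 12.3 in 564 to 15.2 in 549. They overlapped the vehicle range, and the difference of -0.44 (SE 0.32) did not pass (edgeR adjusted p = 0.352). Of the 31-base words in its transcripts, 47.0% also stand in Gm12854, and reads that match both could be split between them, so its counts are uncertain. The counts given to Gm12854 moved the same way, from 2.61 CPM ± 0.32 (SD, n = 4) in uninjured cord to 15.7 ± 1.98 in vehicle and 11.3 ± 4.81 in tamoxifen lesions.

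S100b, the astrocyte protein, was the member with the smallest differences. It was at 637, 626, 591 and 705 CPM in uninjured cord and at 674, 722, 747 and 628 CPM in vehicle lesions. These ranges overlapped, and the log2 change of 0.12 (SE 0.08) did not pass (edgeR adjusted p = 0.259). Tamoxifen libraries held 691 (452), 807 (513), 852 (549) and 801 CPM (564). The 3 libraries of the high series exceeded every other library, and 452 did not. Against uninjured cord S100b was higher by 0.30 (SE 0.08, edgeR adjusted p = 0.00862). That call was lost with the sample name series as a term (0.11, edgeR adjusted p = 0.545), without the high series (0.11, edgeR adjusted p = 0.576) and without the libraries high in muscle transcripts (0.21, edgeR adjusted p = 0.196). Against vehicle its change of 0.19 (SE 0.08) did not pass (edgeR adjusted p = 0.131), though it did without library 452 (0.25, edgeR adjusted p = 0.0358).

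Anxa1, which counters inflammation by way of formyl peptide receptors, had the second largest rise after injury. Its uninjured levels were 9.30, 4.54, 3.34 and 0.527 CPM, the last from 6 counts in library 467. The vehicle libraries held 67.4 (402), 32.5 (428), 53.4 (429) and 73.5 CPM (457), and the tamoxifen libraries 11.5 (452), 13.8 (513), 10.6 (549) and 23.6 CPM (564). No group overlapped another, but library 549, at 10.6 CPM, was close to uninjured library 376. Anxa1 rose by 3.73 on the log2 scale after injury (SE 0.50, edgeR adjusted p = 6.75e-05), or 13.3-fold. Without uninjured library 376 the rise was 4.33 (edgeR adjusted p = 9.08e-05), and the rise in tamoxifen lesions against uninjured cord went from 1.80 to 2.40 (edgeR adjusted p = 0.00325). It changed by -1.93 after tamoxifen against vehicle (SE 0.44, edgeR adjusted p = 0.0136), the largest fall of the 10 in size, with an error wide enough to reach the value of S100a4.

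Anxa2, a partner of S100A10 in gathering plasminogen and its activator at the cell surface, was among the more abundant members. It was at 55.1, 55.1, 45.2 and 32.3 CPM in uninjured cord and at 198, 149, 197 and 203 CPM in vehicle lesions, a log2 rise of 2.00 (SE 0.19, edgeR adjusted p = 7.99e-06). The tamoxifen libraries were at 83.2 (452), 129 (513), 146 (549) and 124 CPM (564), all below the lowest vehicle library, 428, to which 549 came close. The change of -0.63 (SE 0.18) passed (edgeR adjusted p = 0.0348), but without library 402, 429, 457, 513 or 564 it did not.

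Anxa3, an annexin of myeloid cells and activated microglia, was at 21.0, 17.2, 15.4 and 9.48 CPM in uninjured cord. Vehicle lesions held 158, 142, 132 and 140 CPM and tamoxifen lesions 72.1 (452), 66.0 (513), 92.9 (549) and 96.0 CPM (564). The groups were well apart, with the highest tamoxifen library below the lowest vehicle library by more than the range within either lesion group. Anxa3 rose by 3.19 after injury (SE 0.19, edgeR adjusted p = 1.08e-06) and changed by -0.80 after tamoxifen against vehicle (SE 0.17, edgeR adjusted p = 0.0105).

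Anxa4, an annexin of epithelia and other secretory cells, was at 17.1, 18.0, 18.2 and 10.7 CPM in uninjured cord and 52.7, 38.3, 56.7 and 49.9 CPM in vehicle lesions. That is a log2 rise of 1.63 (SE 0.20, edgeR adjusted p = 3.96e-05). Tamoxifen lesions held 32.4 (452), 39.4 (513), 46.7 (549) and 25.99 CPM (564). Libraries 513 and 549 lay inside the vehicle range, and the change of -0.45 (SE 0.19) did not pass (edgeR adjusted p = 0.122).

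Anxa5, which binds exposed phosphatidylserine and is used to stain dying cells, had the highest level of the 5 annexins in every group and the smallest rise among them. Its levels were 233, 221, 205 and 205 CPM in uninjured cord, 422, 364, 379 and 393 CPM in vehicle lesions, and 281 (452), 331 (513), 356 (549) and 326 CPM (564) in tamoxifen lesions. No group overlapped another, although library 549 came close to vehicle library 428. Anxa5 rose by 0.85 after injury (SE 0.08, edgeR adjusted p = 6.22e-06) and changed by -0.27 after tamoxifen against vehicle (SE 0.08, edgeR adjusted p = 0.0347). That call was lost without library 402, 429, 457, 513 or 564, as for Anxa2.

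**Figure D2:**
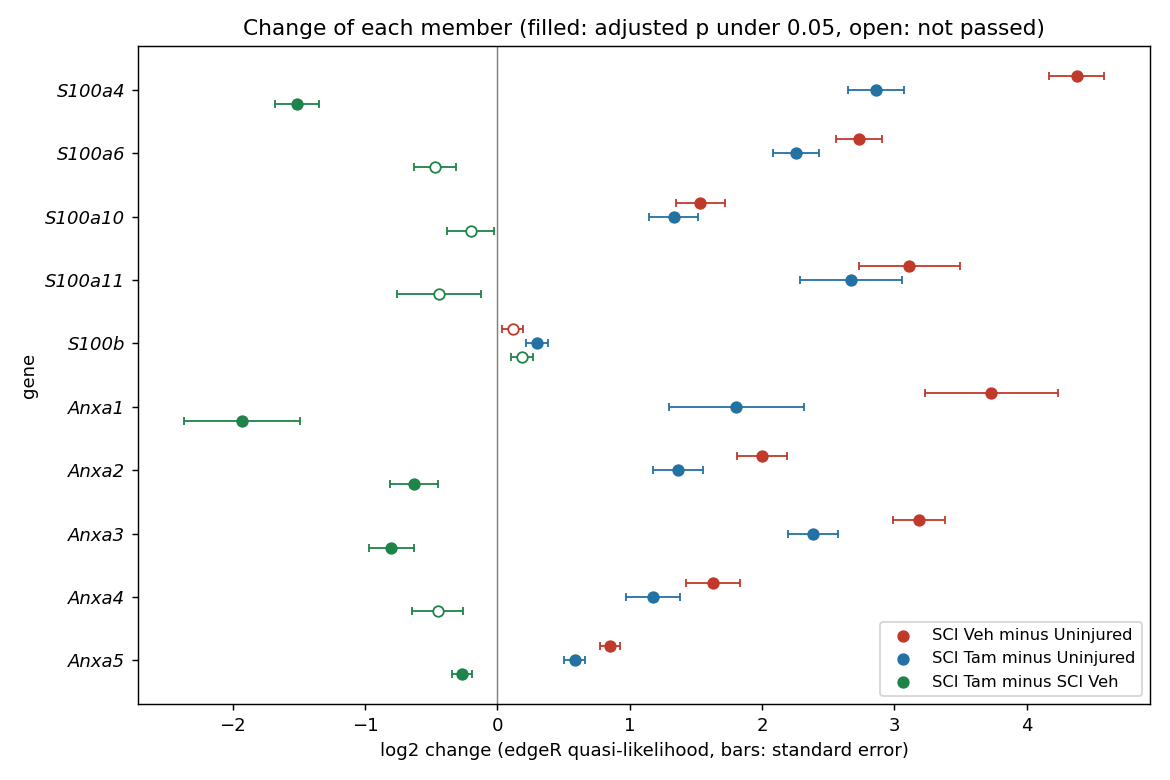
Log2 change of each member in the 3 comparisons with its standard error, filled where the adjusted p was under 0.05. The points for tamoxifen against vehicle run from -1.93 for Anxa1 to 0.19 for S100b, and those for S100a4 and Anxa1 are farthest to the left.

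Within the tamoxifen group the members did not vary alike. Library 452 had the lowest level of the group for 7 of 10 members. It lay below every vehicle library for 9 members, all but S100b, whereas library 513 did so for 7, 549 for 6 and 564 for 8. S100a4, S100a6, Anxa1, Anxa2, Anxa3 and Anxa5 were the 6 members below the vehicle range in each tamoxifen library. In the vehicle group library 428 was lowest for 6 members, and in the uninjured group library 467 for 7. The share of all genes below the vehicle range in this way was not counted, nor was the share lowest in each library. None of these numbers therefore has a background, and they are not read as a trait of the members.

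On the per-length scale of FPKM, S100b was the most abundant member in all 3 groups, at 397 ± 31.3 FPKM in uninjured cord, 434 ± 34.6 in vehicle and 514 ± 56.9 in tamoxifen lesions (SD, n = 4 each). Below it the order of levels differed between groups. In uninjured cord Anxa5 came next, at 116 ± 7.93 FPKM, and S100a6, at 39.3 ± 8.79, overlapped Anxa2 and Anxa2 overlapped S100a10. The 5 lowest there, Anxa3, Anxa4, S100a4, S100a11 and Anxa1, stood at 8.84 down to 3.14 FPKM on average, and each overlapped the next. In vehicle lesions S100a6, at 264 ± 16.2 FPKM, stood above Anxa5, at 211 ± 13.1, with no overlap. S100a4, at 85.9 ± 12.6 FPKM, overlapped both of its neighbours there, S100a10 and Anxa3. In tamoxifen lesions S100a6, at 198 ± 48.1 FPKM, and Anxa5, at 182 ± 20.8, overlapped, which they did in neither other group. S100a4 was then at 29.1 ± 2.66 FPKM, below Anxa3 at 46.8 ± 9.27 with no overlap. Anxa4 was lowest in vehicle lesions (23.6 ± 4.11 FPKM) and Anxa1 in tamoxifen lesions (10.5 ± 4.42).

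The known partners were then compared as ratios within a library, which do not depend on how libraries are scaled. The log2 FPKM ratio of Anxa2 to S100a10 was 0.01 ± 0.37 in uninjured cord, 0.38 ± 0.10 in vehicle lesions and -0.02 ± 0.22 in tamoxifen lesions (SD, n = 4). All 4 vehicle libraries, at 0.35, 0.31, 0.36 and 0.53, were above all 4 tamoxifen libraries, at 0.25 (452), 0.05 (513), -0.12 (549) and -0.26 (564). An exact permutation test of the difference of -0.41 gave a two-sided p = 0.0286, the smallest that 70 splits allow, and 0.0857 after Benjamini-Hochberg adjustment over 6 ratio tests. The difference of 0.37 between vehicle and uninjured gave the same exact p = 0.0286 and adjusted 0.0857, and became 0.19 without uninjured library 467. Between tamoxifen and uninjured the difference was -0.04 (exact permutation p = 0.857). The log2 ratio of Anxa1 to S100a11 was -0.72 ± 0.72 in uninjured cord, -0.04 ± 0.46 in vehicle and -1.39 ± 0.80 in tamoxifen lesions. Its difference between tamoxifen and vehicle was -1.35 (exact permutation p = 0.0571, adjusted 0.114), with library 549 lowest at -2.49. Its other differences were 0.68 between vehicle and uninjured (exact permutation p = 0.171) and -0.67 between tamoxifen and uninjured (exact permutation p = 0.286). Without library 467 these became 0.34 and -1.01, and the latter was -0.30 without library 549. No ratio difference passed after adjustment. With 70 splits and 6 tests, a difference could pass only where most of the tests reached the smallest p. Not passing therefore cannot show that a ratio was unchanged.

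**Figure D3:**
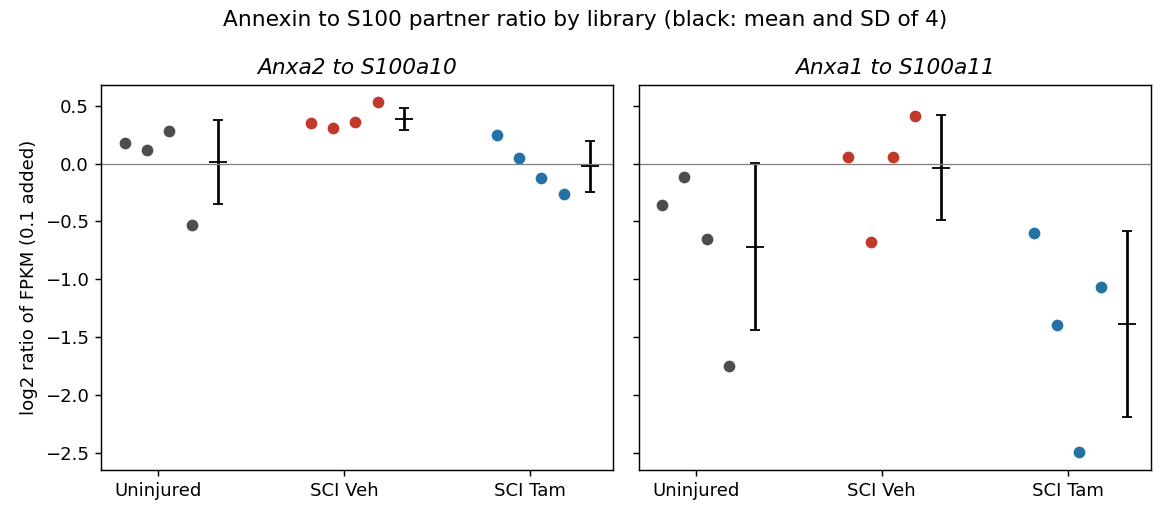
Log2 ratio of FPKM within each library for the pairs Anxa2 to S100a10 and Anxa1 to S100a11, with points for libraries and a black mean with SD of 4. For Anxa2 to S100a10 the vehicle libraries lie at 0.31 to 0.53 and the tamoxifen libraries at -0.26 to 0.25.

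Markers of several cell types moved with the same comparisons. The summed CPM of 6 fibroblast markers (Col1a1, Col1a2, Dcn, Lum, Pdgfra and Fn1) ran from 209 to 697 in uninjured, from 2795 to 6839 in vehicle and from 905 to 1343 in tamoxifen libraries. Of these markers 6 of 6 rose after injury and 5 of 6 fell after tamoxifen against vehicle. Of 7 macrophage and microglia markers 7 rose after injury, their sum going from 133 to 166 CPM in uninjured to 591 to 1027 CPM in vehicle libraries. In tamoxifen libraries that sum was 490 to 766 CPM, and 0 of 7 passed against vehicle. The 5 neutrophil markers summed to 5.62 to 10.2 CPM in uninjured, 53.6 to 79.2 in vehicle and 25.1 to 43.9 in tamoxifen libraries, with 1 of 3 tested lower after tamoxifen. That sum was nearly all Csf3r, which microglia also make, at 7.67, 59.5 and 33.1 CPM on average in the 3 groups. Ly6g, Retnlg, Mmp8 and Cxcr2 were at most 1.82 CPM in any library. The 6 astrocyte markers summed to 4986 to 5689, 8153 to 10410 and 9215 to 12010 CPM in the same order. Of these, 3 of 6 were called higher after injury and 1 of 6 after tamoxifen against vehicle. Gfap averaged 2164, 5176 and 6009 CPM in the 3 groups, while Slc1a2 averaged 2047, 2084 and 2118. The 5 pericyte markers summed to 216 to 247, 344 to 394 and 289 to 348 CPM. Of these, 4 of 5 were higher after injury and 1 of 5 lower after tamoxifen against vehicle. Pdgfrb averaged 40.7, 82.6 and 40.2 CPM, and Rgs5 126, 180 and 181. Of 5 neuron markers 5 fell after injury, their sum going from 2910 to 3219 CPM in uninjured to 1477 to 1989 in vehicle libraries, and 0 of 5 passed between tamoxifen (1775 to 2744 CPM) and vehicle. The 4 meningeal barrier markers summed to 1.93 to 41.3, 31.04 to 78.2 and 4.68 to 37.4 CPM, with 1 of 4 lower after tamoxifen against vehicle. The 8 skeletal muscle markers matched ranged from 3.10 to 766 CPM in uninjured, 9.01 to 530 in vehicle and 2.78 to 17.5 in tamoxifen libraries, with 3 of 8 lower after tamoxifen. Beside these marker counts, 26.7% of all genes were called higher and 24.1% lower after injury. After tamoxifen against vehicle the shares were 7.79% higher and 8.33% lower. The part of each of these cell types in the members' changes was not tested.

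**Figure D4:**
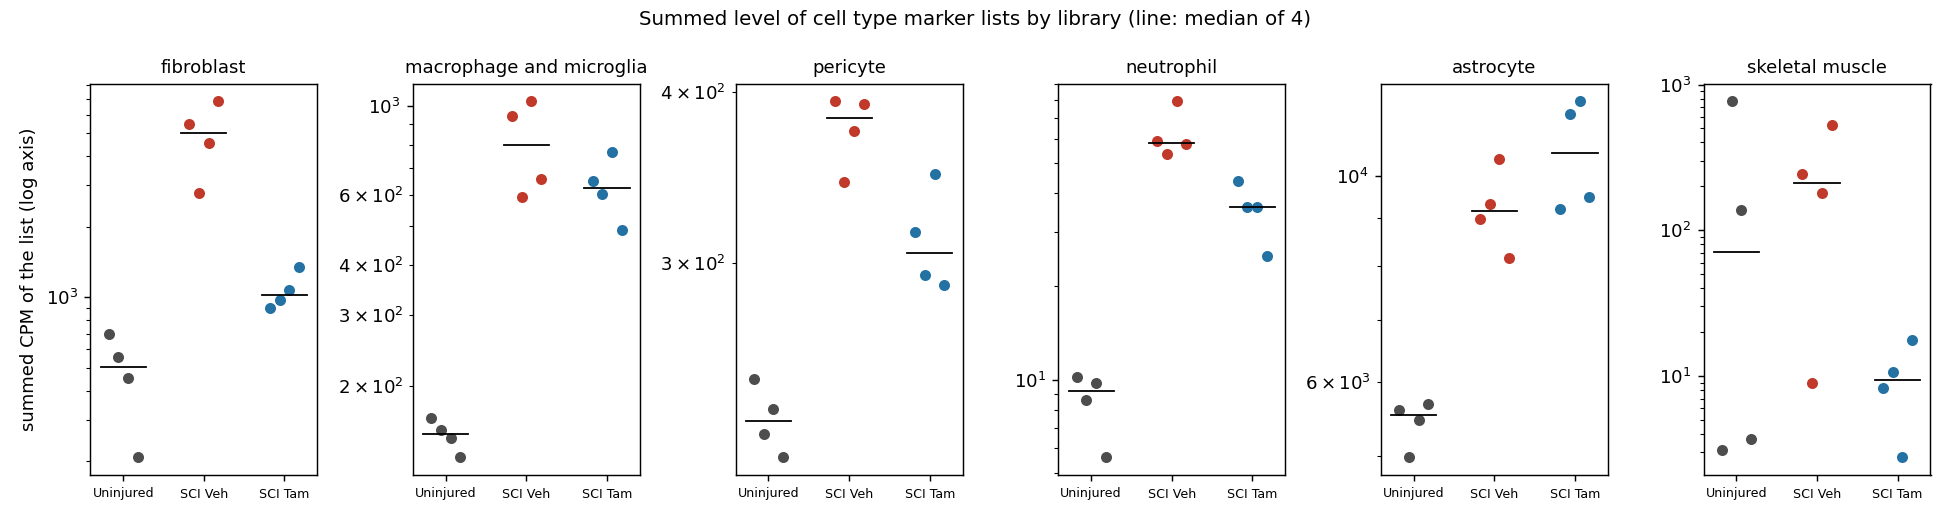
Summed CPM of 6 marker lists in each library on a log axis, with a line at the median of 4. The fibroblast sum is highest in vehicle libraries (2795 to 6839 CPM), while the astrocyte sums of tamoxifen and vehicle libraries overlap and the muscle sum runs from 3.10 to 766 CPM among uninjured libraries.

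The tamoxifen difference was smaller in number of calls once the library differences entered the fit. With the sample name series as a term, the difference between tamoxifen and vehicle rests on library 452 alone. S100a4 (-1.68, edgeR adjusted p = 0.0406) and S100a10 (-0.95, edgeR adjusted p = 0.0427) then passed, 2 of 10 where 0.243% of all genes were lower. The other changes in that fit were larger in size than without the term for S100a6 (-0.91), S100a11 (-1.77), Anxa1 (-2.30), Anxa2 (-1.17), Anxa3 (-0.98), Anxa4 (-0.61) and Anxa5 (-0.47). None of these passed, with edgeR adjusted p from 0.0885 to 0.424. Leaving out the 3 libraries of the high series kept 452 as the lone tamoxifen library, assumed to vary like the others. There S100a4 changed by -1.68 against vehicle, but neither it nor any other member passed in that comparison. Against uninjured cord 6 members passed with the series term, where 7.55% of genes were higher, and S100a11, S100b, Anxa1 and Anxa4 were lost. Without those libraries 6 passed, where 7.29% of genes were higher, and S100a11, S100b, Anxa1 and Anxa2 were lost.

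With the muscle marker level as a term, S100a4 was the member that passed against vehicle (-1.32, edgeR adjusted p = 0.0306), where 0.334% of all genes were lower. Anxa1 was then at -1.42 (edgeR adjusted p = 0.21) and Anxa3 at -0.76 (edgeR adjusted p = 0.127). Leaving out the 5 libraries high in muscle transcripts kept 1 vehicle library, 428, assumed to vary like the other groups, and 2 uninjured libraries. In that fit 3 members rose after injury (S100a4, S100a6 and Anxa3), where 1.60% of genes were higher, and 0 passed after tamoxifen against vehicle in edgeR, where 0% of genes did, with 1 member at an unadjusted p under 0.05. The changes against vehicle there were -1.24 for S100a4, -1.12 for Anxa1, -0.80 for Anxa3, -0.47 for S100a6 and -0.30 for Anxa2. With sex as a term 4 members were lower after tamoxifen, where 3.56% of genes were lower, and Anxa5 was the one lost (-0.29, edgeR adjusted p = 0.115). On log2(FPKM + 0.1) limma called S100a4, Anxa1 and Anxa3 lower, where 4.18% of genes were lower. S100a4 passed in 26 of 28 alternative fits against vehicle, Anxa1 and Anxa3 in 23 each, Anxa2 in 15 and Anxa5 in 13.

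**Figure D5:**
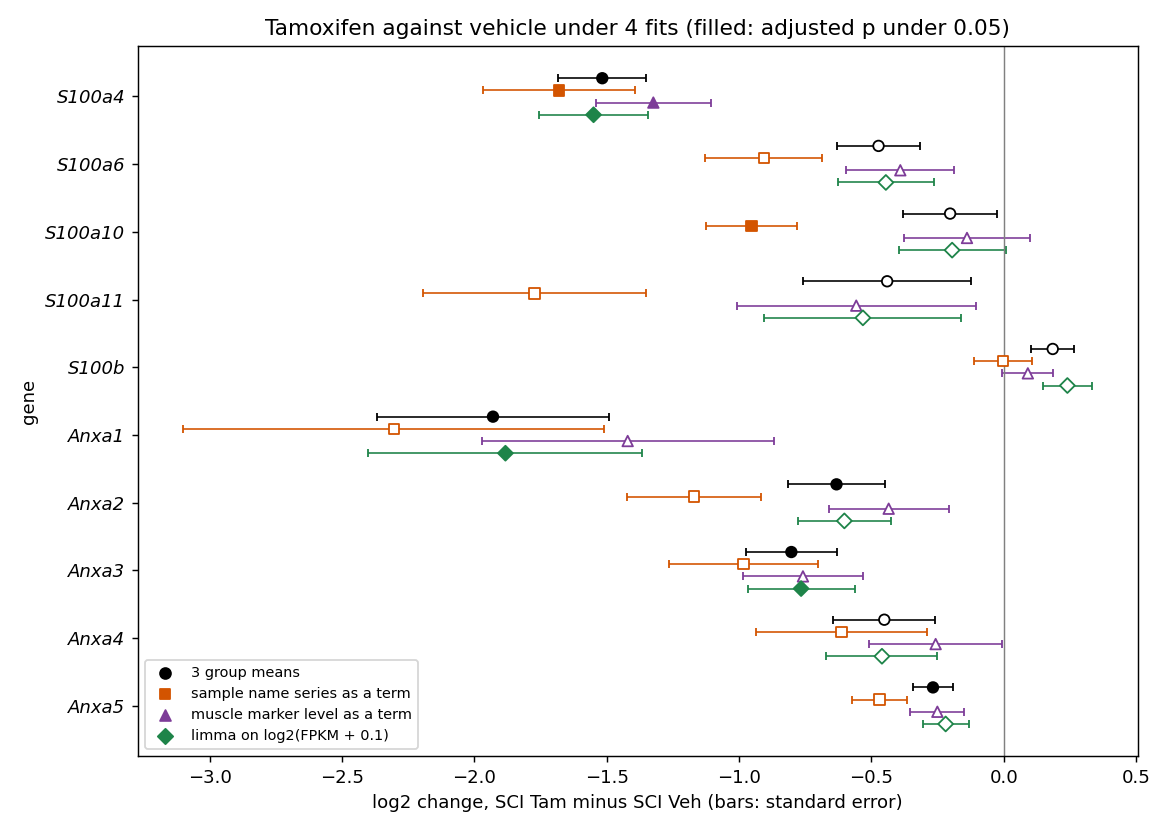
Log2 change of each member between tamoxifen and vehicle lesions under 4 fits, with its standard error, filled where the adjusted p was under 0.05. S100a4 is filled in each of the 4 fits, from -1.68 to -1.32, and the squares of the fit with the sample name series as a term lie left of the circles for every member.

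Of 18 other S100 and annexin genes listed, 10 passed the filter. The calprotectin genes S100a8 and S100a9, products of neutrophils and monocytes, were at 3.53 to 9.08 and 5.02 to 12.5 CPM in vehicle lesions and did not pass in any comparison. The counts of Anxa11 stepped between the sample name series, so it was read from log2(FPKM + 0.1). After injury 6 of the 10 rose, where 26.7% of all genes were called higher. These were S100a1 (1.01), S100a13 (1.18) and S100a16 (0.53), the broadly expressed Anxa7 (0.37), Anxa11 (0.63, limma adjusted p = 0.00183) and Anxa9 (1.07, from 1.90 CPM ± 0.62, SD, n = 4, to 4.00 ± 0.93). S100a13, which carries signal-less growth factors out of cells, was at 22.4 to 24.3 CPM in uninjured, 46.1 to 56.5 in vehicle and 46.4 to 54.3 in tamoxifen libraries. Anxa6, a large annexin with a doubled core, was at 246 CPM ± 18.6 in uninjured, 244 ± 5.78 in vehicle and 250 ± 32.5 in tamoxifen lesions (SD, n = 4). Anxa8 was at most 4.17 CPM in any library and did not pass in any comparison. Against vehicle, 0 of the 10 passed after tamoxifen, where 7.79% of all genes were called higher and 8.33% lower. Anxa11 was at -0.26 on log2(FPKM + 0.1) (limma adjusted p = 0.215). From its stepped counts, which are not used, Anxa11 would be called higher (0.86, edgeR adjusted p = 0.0224). In tamoxifen lesions against uninjured cord S100a1, S100a13, S100a16 and Anxa7 rose again, by 1.04, 1.13, 0.75 and 0.29, and Anxa11 by 0.37 on log2(FPKM + 0.1) (limma adjusted p = 0.0381).

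Of 16 partners listed, 13 passed the filter. With Ahnak2, whose counts stepped, read from log2(FPKM + 0.1), after injury 8 rose and 2 fell. Among all genes 26.7% were called higher and 24.1% lower in that comparison. In the plasmin system, which S100A10 and annexin A2 anchor at the cell surface, Plat (tissue plasminogen activator) rose by 1.43, Plau (urokinase) by 3.60 and its receptor Plaur by 3.89. Tlr4, a receptor proposed for several S100 proteins, rose by 2.17, from 2.50 CPM ± 0.59 (SD, n = 4) to 11.3 ± 2.37. The formyl peptide receptors Fpr1 and Fpr2, through which annexin A1 acts, did not pass the filter, with levels of at most 0.864 CPM in any library. Plasminogen itself (Plg) was at most 0.439 CPM. Against vehicle, tamoxifen lesions had 5 partners lower and 2 higher (Cacybp and Sugt1), where 8.33% of all genes were called lower and 7.79% higher. Plat was at 126 to 149 CPM in tamoxifen and 173 to 187 CPM in vehicle libraries (-0.42, edgeR adjusted p = 0.00318). Plau was at 36.8 CPM in library 452 and at 10.7 to 17.4 CPM in the high series, and changed by -1.15 (edgeR adjusted p = 0.0197). Ahnak, a giant scaffold that annexin A2 and S100A10 bind at the membrane, changed by -0.79 (edgeR adjusted p = 0.0152), and Cacybp, the S100A6-binding adaptor, by 0.34 (edgeR adjusted p = 0.0151). The related scaffold Ahnak2 changed by -0.56 on log2(FPKM + 0.1) (limma adjusted p = 0.0495), was called higher from its stepped counts (1.13), and is named for that reason after its values were seen. Against uninjured cord 8 partners were higher in tamoxifen lesions, where 26.3% of all genes were called higher. Among the 8 were Plat (1.01), Plau (2.44), Plaur (3.35) and Tlr4 (1.81).

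For each member the 2 genes nearest in pattern were sought among 12816 genes, by the root mean square difference over 12 libraries of log2(FPKM + 0.1) set to the mean of the uninjured libraries. S100b lay nearest to Tuba1a (0.05) and Cadm4 (0.06), and Anxa5 to Pltp and Ilk (0.08 each). Anxa4 lay nearest to Pqlc3 (0.16) and Iqgap1 (0.18), Anxa2 to Rhoc (0.17) and Ifitm2 (0.18), and S100a10 to Ccnd1 (0.18) and Tax1bp3 (0.19). S100a6 was nearest to Emp3 (0.24) and Socs3 (0.26), and S100a11 to Vim, the intermediate filament of reactive glia and mesenchymal cells, and Cd109 (0.30 and 0.31). Itga5, the fibronectin receptor subunit, was nearest to both Anxa3 (0.23) and S100a4 (0.50), with Vim (0.25) and Gpr65 (0.52) second. The nearest genes to Anxa1 were Lox, which cross-links collagen, and Fn1, or fibronectin (0.47 and 0.48). The distances of S100a4 and Anxa1 were the largest, so no other gene searched came as close to them as to the other members. S100a4 and Anxa1 had low counts in uninjured cord, at 10 to 25 and 6 to 81 a library. S100a11 also had low counts there, at 11 to 25, with distances of 0.30 and 0.31. Spread between libraries adds to such a distance, but what made those of S100a4 and Anxa1 the largest was not tested. All 12 libraries enter these distances, so they share the groups, the series and the library differences given above.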

How the data were processed

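RNA of 12 spinal cord pieces had been sequenced. Raw counts of 37991 genes, and FPKM values (fragments scaled by transcript length and library depth), were deposited by the authors. Per the submitters' processing notes, TopHat, Picard, Cufflinks and HTSeq were used on mm9. The sources used here give neither their roles and versions nor the strandedness. The counts were fitted with edgeR 4.0.16 (R 4.3.3) after filterByExpr by group (minimum count 10, minimum total 15) and TMM scaling, as a quasi-likelihood fit of 3 group means over 12 libraries with 9 residual degrees of freedom, two-sided, with Benjamini-Hochberg over 16473 genes. The smallest library had 7967970 counts, and counting errors cover sampling alone. Errors are SE or SD of 4 mice. The SE of an edgeR change was derived from its test, as the size of the log2 change divided by the square root of the F statistic.

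Symbols were joined by Ensembl identifier. A gene stepped where its log2 CPM to FPKM ratio, centred by library over genes with at least 200 counts, differed by more than 0.5 without overlap between the 3 high series libraries and the other 9. Stepped genes were read from limma 3.58.1 on log2(FPKM + 0.1), over genes with an FPKM of at least 0.5 in at least 4 libraries. A library was high in muscle transcripts where the mean log2 CPM of its markers exceeded 2. Shared sequence was read from 31-base words of GENCODE transcripts, and promoters from RefSeq (GRCm38.p6), a later build than the mm9 of the files. Scripts were tested on simulated data.

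The members and lists were chosen with earlier results of these data known. The genes named were, by rule, all members, other family genes past the filter, the 4 partners with the smallest p in each comparison, and the 2 named genes nearest to each member among those with a mean FPKM of at least 1. Ratios used log2(FPKM + 0.1) and exact permutation tests. The 29 alternatives, of which the step threshold could not change a member, were DESeq2 1.42.0 size factors and its Wald test, library totals, other filters, limma-voom, FPKM fits, a step threshold of 0.25, the 8 libraries compared, terms for sex, series and muscle, leaving out libraries high in muscle and, added after seeing the data, the high series, and each of the 12 libraries left out in turn. A check of the targeted alleles is not reported here.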

Additional observations from a re-analysis of the deposited data

Results flagged for a closer look

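In 99 groups of 4 libraries, taken over the members and the other family genes and partners that passed the filter, 5 had a sample so far from the rest that its gap to the nearest of them, as a share of the whole range, passed Dixon's critical value. Chance alone flags about 1 in 20 such groups. Anxa2 was at 149 CPM in vehicle library 428 and at 197 to 203 CPM in the other vehicle libraries. Anxa4 was at 10.7 CPM in uninjured library 467 and at 17.1 to 18.2 CPM in the other uninjured libraries. S100a8 was at 2.30 CPM in tamoxifen library 564 and at 3.35 to 3.56 CPM in the others of its group. S100a9 was at 24.1 CPM in uninjured library 376 and at 1.76 to 4.39 CPM in the other uninjured libraries. Dysf, the membrane repair protein dysferlin, was at 29.3 CPM in tamoxifen library 549 and at 18.1 to 19.8 CPM in the others of its group. What set these samples apart was not tested.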

How the results depend on the processing

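Of 280 member values per comparison over 28 alternatives, 274 kept their direction and side of the threshold for vehicle against uninjured, 230 for tamoxifen against vehicle and 270 for tamoxifen against uninjured. For vehicle against uninjured, 9 members were called in every alternative but the one without the libraries high in muscle transcripts, with 3. For tamoxifen against vehicle, 5 members were called in the fit reported, 3 by limma on log2(FPKM + 0.1), on log2(FPKM + 1) and median centred, 1 with no filter on low FPKM, 2 with the series term, 1 with the muscle term, and 0 without the libraries high in muscle transcripts or without the high series. Leaving out 1 library gave 3 to 6 there, 9 for vehicle against uninjured and 10 for tamoxifen against uninjured. For tamoxifen against uninjured, 6 were called with the series term and 6 without the high series. The sign turned for S100a10 between tamoxifen and vehicle without the libraries high in muscle transcripts (0.05), for S100b with the series term (-0.0028) and without the high series (-0.0020), and for the log2 ratio of Anxa2 to S100a10 between tamoxifen and uninjured with CPM in place of FPKM (0.091). The causes were not tested.

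Over all genes, 2655 were called for tamoxifen against vehicle (1283 higher, 1372 lower). This became 1355, 1443 and 838 in the FPKM fits with 0.1 or 1 added and with no filter, 1513 with the 8 libraries, 989 with sex, 57 with series, 61 with muscle and 29 without the high series. Without the libraries high in muscle transcripts edgeR called 0 (1239 at unadjusted p under 0.05). Leaving out 1 library gave 1236 to 4631. Median-centred FPKM gave 1321 higher and 629 lower there, and 3303 higher and 4920 lower for vehicle against uninjured, where counts gave 4393 and 3975. Without the libraries high in muscle transcripts, 296 were called for vehicle against uninjured (8368 with all) and 3540 for tamoxifen against uninjured (8063 with all), which fell to 1951 with the series term and 2024 without the high series. No paired analysis was possible because the mouse numbers differ between groups. Low counts limit S100a4, S100a11 and Anxa1 in uninjured cord (6 to 81 a library), and S100a4 and S100a11 share sequence with Gm42674 and Gm12854. A step threshold of 0.25 could not change a member, since none stepped at either threshold, and is not among the 28.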
